A study of Homo sapiens with 21 samples.

Results

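The genes described here are 42 genes of DNA replication and S phase, out of 37637 features in the gene count table of HepG2 cells exposed to caffeine. They were taken from a list of symbols that was matched to the Ensembl gene IDs of the table, with no measured value in the rule. All 42 symbols matched, and all 42 genes passed the filter on low counts. HepG2 is an established human liver cancer cell line. RNA was sequenced in 21 libraries, 3 for each of 7 groups of cells kept for 6 h with 0, 0.01, 0.1, 1, 10, 100 or 1000 µM caffeine. Every group, the 0 µM controls included, had its serum-containing medium replaced for those 6 h by DMEM without serum, so the controls are cells without serum and not cells in full medium. Cells were detached with trypsin, RNA was purified with Trizol, poly(dT) beads were used to select it, and the SmartScribe enzyme made the cDNA. One text of the series names coumarin for the control group, and the sample labels, which give caffeine at 0 µM, were followed here.

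A cell copies its genome once per division. In G1 the origin recognition complex, CDC6 and CDT1 load the MCM2 to MCM7 ring onto origins, a step called licensing, and in S phase CDC45 and the GINS complex turn that ring into a moving helicase. DNA polymerases alpha, delta and epsilon then copy the strands with the help of the sliding clamp PCNA, its loader RFC and the single-strand binding complex RPA. Transcription factors of the E2F family drive many of these genes at the transition from G1 to S phase, and enzymes such as thymidine kinase and ribonucleotide reductase supply the nucleotides.

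At 1000 µM caffeine 21 of the 42 genes, which is 50%, were lower than in the controls and none was higher (edgeR's quasi-likelihood test, Benjamini-Hochberg adjusted p under 0.05 over 17468 genes). Over all genes tested 41.2% passed at that dose, 20.6% lower and 20.6% higher. The largest decreases were those of POLA2, the second subunit of DNA polymerase alpha, which fell by 54.9%, RPA3, the smallest RPA subunit, which fell by 48.7%, and TK1, thymidine kinase, which fell by 48.2%. With a trend on transcript length and GC content removed from every library TK1 had a log2 fold change of −0.39 in place of −0.95, and RPA3 lost its call in 4 fits that each left out 1 library. None of the 6 subunits of the MCM2 to MCM7 ring passed this test in any comparison, and all 4 GINS genes and 6 of the 7 genes of the clamp, its loader and the lagging strand were lower. The difference between these sets was not tested. Of the 6, only RFC2 and LIG1 passed without replicate 1 of the controls, without replicate 1 at 1000 µM or without replicate 3 at 1000 µM, and MCM7 passed as lower with DESeq2. Below 1000 µM few of the genes passed, except at 10 µM.

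The libraries held 28043623 to 40827833 counts each, with a median of 32497612. The lowest count of any of the 42 genes in any library was 120, for CCNE2. All 9 hepatocyte markers checked were abundant, from 56.8 CPM for FGB to 5870 CPM for ALB in the controls (CPM is the normalised read count of a gene relative to its library's total after TMM scaling). At 1000 µM 4 of the 9 passed the test, with log2 fold changes of −1.04 for APOA1, −0.69 for AFP, −0.33 for FGB and 0.56 for APOB, and their part in the results on the 42 genes was not tested. Of the markers of other cell types, PTPRC, VWF, COL1A1, COL1A2, DCN and KRT5 reached at most 6 counts in any library. CD68, which many cells express in lysosomes, was at 76.6 CPM in the controls. Mitochondrial genes took 4.95% to 14.2% of the counts. Replicate 1 at 0.01 µM, with 11.7% mitochondrial counts, stood apart from the other libraries of its dose in several of these genes: MCM5, an MCM ring subunit, was at 131 CPM there against 214 and 209 CPM, and UHRF1 was at 103 CPM against 188 and 188 CPM. Replicate 3 at 1 µM had the highest mitochondrial share. The 42 genes together took 0.461% to 0.475% of all counts in the controls, 0.378% to 0.42% at 1000 µM, 0.397% in replicate 1 at 0.01 µM and 0.377% in replicate 3 at 1 µM. A lower level in a bulk library can mean, among other things, fewer cells in S phase or less RNA per such cell, and these cannot be told apart here.

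The promoters are shown because many of these genes are known as E2F targets. RefSeq windows of 300 bases on GRCh38.p14, from 250 bases before to 50 bases after a transcript start, were given for 36 of the 42 genes, in 46 windows. The search was for an E2F-type core (the letters TTCCCGC or the letters TTGGCGC or the letters TTCGCGC or the letters TTGCCGC, on either strand, where matches can overlap one another) and for CCAAT on either strand. An E2F-type core was in 31 of the 46 windows (67.4%), against 13.0% of the 35116 windows of the same length in the table. CCAAT was in 28 of the 46 windows (60.9%), against 34.6% of all windows. Among the 22 windows of genes that were lower at 1000 µM 72.7% held an E2F-type core, and among the 24 windows of the other genes 62.5% did, so the core was present in most windows of both kinds. CCAAT went the other way, in 45.5% of the 22 windows and in 75.0% of the 24. Neither difference was tested. These matches describe letters only. The 4 windows printed are 3 from genes that were lower (POLA2, CDC6 and TK1) and 1 from a gene that was not (MCM3), each in the direction of transcription with E2F-type cores and CCAAT matches in capitals. The POLA2 window is chr11:65261712-65262011 on the plus strand and holds 1 core and no CCAAT. The CDC6 window is chr17:40287629-40287928 on the plus strand and holds 1 core and 3 CCAAT matches. TK1 has 2 windows, and the one printed, chr17:78187003-78187302 on the minus strand, holds 1 core and 2 CCAAT matches, while the other, chr17:78187155-78187454, holds none of either. The MCM3 window is chr6:52284693-52284992 on the minus strand and holds 3 cores and 3 CCAAT matches.
POLA2: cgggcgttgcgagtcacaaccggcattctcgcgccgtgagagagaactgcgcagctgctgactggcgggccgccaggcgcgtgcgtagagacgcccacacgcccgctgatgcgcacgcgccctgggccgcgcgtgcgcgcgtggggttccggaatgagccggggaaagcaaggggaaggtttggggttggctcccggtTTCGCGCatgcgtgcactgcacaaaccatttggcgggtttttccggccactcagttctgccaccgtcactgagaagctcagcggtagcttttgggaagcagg
CDC6: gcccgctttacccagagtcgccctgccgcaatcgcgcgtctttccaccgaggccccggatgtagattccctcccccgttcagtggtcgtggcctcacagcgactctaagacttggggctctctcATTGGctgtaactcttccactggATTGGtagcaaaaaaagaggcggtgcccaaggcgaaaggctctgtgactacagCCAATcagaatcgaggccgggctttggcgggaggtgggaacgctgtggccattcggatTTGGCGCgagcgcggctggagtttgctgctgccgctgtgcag
TK1: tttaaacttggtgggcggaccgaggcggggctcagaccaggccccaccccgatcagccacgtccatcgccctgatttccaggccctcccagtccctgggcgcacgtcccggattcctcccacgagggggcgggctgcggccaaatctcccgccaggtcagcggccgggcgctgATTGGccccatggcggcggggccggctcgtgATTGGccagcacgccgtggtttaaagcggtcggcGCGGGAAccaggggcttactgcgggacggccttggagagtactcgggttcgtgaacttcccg
MCM3: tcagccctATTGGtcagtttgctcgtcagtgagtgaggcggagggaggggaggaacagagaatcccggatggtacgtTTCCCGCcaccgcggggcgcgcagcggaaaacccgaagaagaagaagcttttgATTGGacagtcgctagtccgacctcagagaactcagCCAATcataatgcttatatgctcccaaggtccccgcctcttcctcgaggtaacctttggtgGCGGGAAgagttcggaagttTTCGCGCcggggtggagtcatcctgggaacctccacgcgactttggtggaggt

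In the controls the genes spanned a wide range of levels. Per kilobase of annotated exon, PCNA was the most abundant at 394 ± 34.1 CPM per kb (SD, n = 3). MCM3 followed at 128 ± 1.30, TYMS at 109 ± 5.83, MCM7 at 74.0 ± 1.47 and TK1 at 66.7 ± 6.88 CPM per kb. The gap between PCNA and MCM3 and that between TYMS and MCM7 were larger than these SDs, while MCM7 and TK1 differed by about the SD of TK1. At the low end were POLE with 4.45 ± 0.403, POLA1 with 4.20 ± 0.335, POLA2 with 3.84 ± 0.194 and CCNE2 with 1.13 ± 0.118 CPM per kb. By this measure POLE and POLA1 did not differ beyond their spread. It divides by all annotated exon bases, 16609 for POLE and 6336 for POLA1. Their longest transcripts have 8011 and 5486 bases, so the levels of POLE and POLA1 relative to each other depend on the divisor. By this measure the catalytic subunits of polymerases alpha and epsilon stood near the bottom of the list and the clamp at the top.

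Origin licensing is done by ORC1 and ORC6 of the origin recognition complex, by the loaders CDC6 and CDT1, and by the 6 ring subunits MCM2 to MCM7. Of these 10 genes CDC6 and CDT1 passed at 1000 µM against 0 µM, both lower. That is 20% of the set, where 20.6% of all genes were lower. CDC6 was at 84.5, 82.3 and 87.6 CPM in the controls and at 53.6, 62.8 and 52.8 CPM at 1000 µM. The groups did not overlap, and from 0.01 to 100 µM CDC6 stayed between 69.8 and 87.7 CPM, above every library at 1000 µM. Its log2 fold change was −0.59 (SE 0.0876, adjusted p = 5.83e-05). CDT1 was at 76.9, 78.4 and 72.1 CPM in the controls and at 64.0, 43.8 and 44.7 CPM at 1000 µM, so replicate 1 at that dose was the highest of its group but still below the controls. CDT1 fell by 0.58 on the log2 scale (SE 0.152, adjusted p = 0.00567), and by 0.24 with the trend on length and GC content removed.

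None of the ring genes passed edgeR's test, but MCM7 was called lower with DESeq2 (−0.20, adjusted p = 0.0475) and without replicate 2 at 1000 µM (−0.26, adjusted p = 0.0352), and MCM6 with the trend on length and GC content removed (−0.23, adjusted p = 0.0406). MCM2 was at 179, 197.5 and 180.1 CPM in the controls and at 193, 214 and 210.2 CPM at 1000 µM, with overlapping groups. MCM3, the most abundant subunit, was at 472, 466 and 463 CPM in the controls and at 507, 475 and 460.0 CPM at 1000 µM, which also overlap. The log2 fold changes of the 6 subunits at 1000 µM ran from −0.22 for MCM7 (adjusted p = 0.0532) to 0.15 for MCM2 (adjusted p = 0.27), and their mean over the 6 genes was −0.04 ± 0.04 (SD over 3 libraries) relative to the controls. The mean over the other 36 genes was −0.32 ± 0.05 at the same dose. The difference between these sets of genes was not tested. ORC1 was at 33.7, 32.6 and 33.3 CPM in the controls and at 36.5, 39.5 and 37.6 CPM at 1000 µM. Its 3 treated libraries were above all controls, at 0.19 on the log2 scale (SE 0.0796, adjusted p = 0.0645), a difference that passed with DESeq2, with DESeq2's size factors and with a trend on length and GC content removed. ORC6 had a log2 fold change of 0.12 (adjusted p = 0.356) against the controls.

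**Figure D1:**
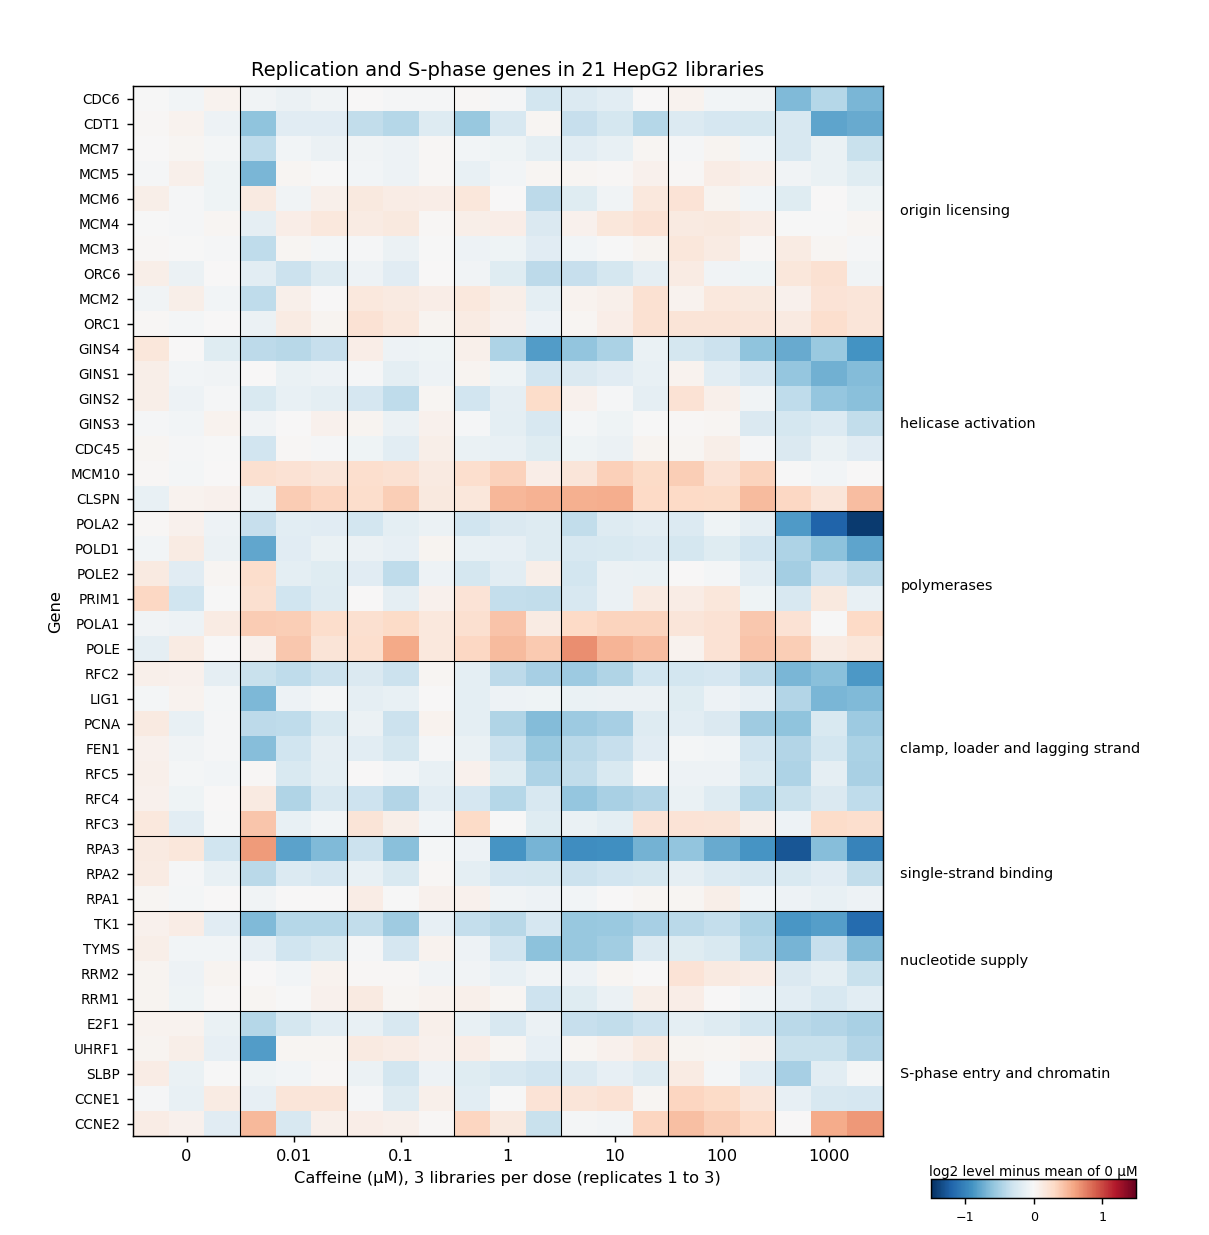
Level of each of the 42 genes (rows, grouped by role) in each of the 21 libraries (columns, 3 per caffeine dose in µM), as log2 CPM minus the mean of the 3 control libraries, with blue for lower and red for higher. The 5 lowest values are those of POLA2 in replicates 2 and 3, RPA3 in replicates 1 and 3 and TK1 in replicate 3, all at 1000 µM, and the rows of the MCM2 to MCM7 ring stay mostly pale outside replicate 1 at 0.01 µM and replicate 3 at 1 µM.

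Helicase activation needs CDC45, MCM10, the 4 GINS subunits and, for signalling at stalled forks, claspin (CLSPN). All 4 GINS genes were lower at 1000 µM. GINS1 was at 55.9, 50.9 and 50.7 CPM in the controls and at 35.2, 31.9 and 33.3 CPM at 1000 µM. Between 0.01 and 100 µM it lay from 43.0 to 54.6 CPM, so all 3 libraries at 1000 µM were below the other 18. Its log2 fold change was −0.65 (SE 0.0921, adjusted p = 3.74e-05). GINS4 had a log2 fold change of −0.74 (adjusted p = 0.00335), GINS2 of −0.53 (adjusted p = 0.00361) and GINS3 of −0.28 (adjusted p = 0.0149), and the call of GINS3 was lost without replicate 3 of the controls, without replicate 3 at 1000 µM and in 2 other settings. GINS4 was also low in single libraries at lower doses, with 16.7 CPM in replicate 3 at 1 µM against 15.98 to 20.3 CPM at 1000 µM. CDC45, the partner of GINS in the helicase, had a log2 fold change of −0.16 (adjusted p = 0.13).

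MCM10 and CLSPN behaved otherwise. MCM10, which helps to start the helicase, was at 49.9, 48.6 and 49.7 CPM in the controls, and every one of the 15 libraries from 0.01 to 100 µM was higher, from 53.1 to 63.6 CPM. At 1000 µM it was at 49.3, 48.0 and 49.6 CPM, back within the range of the controls or just under it. CLSPN was at 29.9, 33.4 and 33.6 CPM in the controls and at 40.0, 36.5 and 44.6 CPM at 1000 µM, all above the controls. Its log2 fold change of 0.32 (SE 0.127) had an adjusted p of 0.0502, which passed with DESeq2, with DESeq2's size factors and in a fit of these 6 libraries alone. CLSPN and ORC1 were the only 2 of the 42 genes with all 3 libraries at 1000 µM above all controls.

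The polymerase genes split. POLA2 was at 22.2, 23.0 and 20.8 CPM in the controls and at 12.1, 9.53 and 8.08 CPM at 1000 µM. In the 15 libraries at doses between these it was at 17.0 to 21.0 CPM, so the libraries at 1000 µM stood clearly below all others. The log2 fold change was −1.15 (SE 0.117, adjusted p = 1.28e-06). POLA2, on chr11:65261762-65305589 of GRCh38 (plus strand, GENCODE v29), shares 2012 exon bases on its own strand with the transcript AP000944.2, and how reads in the shared exons were assigned is not given in the sources used here. AP000944.2 was at 13.98 ± 1.4 CPM in the controls and 15.0 ± 2.21 CPM at 1000 µM (SD, n = 3). The sum of both was 34.6, 37.7 and 35.6 CPM in the controls and 29.3, 22.3 and 23.1 CPM at 1000 µM, so the groups did not overlap in the sum either. The sum fell less than POLA2 alone, from 36.0 ± 1.56 to 24.9 ± 3.85 CPM, and was at 28.6 CPM in replicate 1 at 1 µM.

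POLD1, the catalytic subunit of polymerase delta, was at 71.2, 79.7 and 68.5 CPM in the controls and at 53.0, 47.8 and 42.2 CPM at 1000 µM. The groups did not overlap, but replicate 1 at 0.01 µM, at 42.5 CPM, was as low as the libraries at 1000 µM. Its log2 fold change was −0.62 (SE 0.129, adjusted p = 0.00104), and −0.29 with the trend on length and GC content removed. POLE2, the second subunit of polymerase epsilon, fell by 0.41 (SE 0.129, adjusted p = 0.0158), a call lost in 5 of the 14 other settings, among them those without replicate 1 or 3 of the controls or replicate 1 at 1000 µM. The catalytic subunits POLE and POLA1 and the primase PRIM1 did not pass at 1000 µM, with log2 fold changes of 0.22 (adjusted p = 0.161), 0.17 (adjusted p = 0.163) and −0.08 (adjusted p = 0.743). POLA1 and POLA2 encode partners in one complex. The value of POLA1 turned to −0.12 with the trend on length and GC content removed.

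PCNA is the clamp, RFC2 to RFC5 load it, and FEN1 and LIG1 trim and join the fragments of the lagging strand. Of these 7 genes, 6 were lower at 1000 µM and RFC3 had a log2 fold change of 0.15 (adjusted p = 0.434). RFC2 was at 55.4, 54.9 and 48.0 CPM in the controls and at 32.7, 34.0 and 29.01 CPM at 1000 µM, with no overlap. It fell by 0.73 on the log2 scale (SE 0.108, adjusted p = 5.77e-05), and by 0.39 with the trend on length and GC content removed. LIG1, DNA ligase I, was at 100.2, 106 and 99.6 CPM in the controls and at 75.0, 63.4 and 64.2 CPM at 1000 µM, again with no overlap. From 0.01 to 100 µM LIG1 ran from 90.1 to 102 CPM, except for 63.9 CPM in replicate 1 at 0.01 µM. It fell by 0.59 (SE 0.119, adjusted p = 0.000766).

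PCNA was at 633, 534 and 571 CPM in the controls and at 380.1, 494 and 395 CPM at 1000 µM, so that replicate 2 at 1000 µM lay close to the lowest control. Its log2 fold change was −0.45 (SE 0.144, adjusted p = 0.0174), but its libraries at 0.01, 1, 10 and 100 µM covered 369 to 523 CPM, which takes in every library at 1000 µM. At 0.1 µM PCNA was at 542, 463 and 598 CPM, which reached into the range of the controls. FEN1 fell by 0.39 (adjusted p = 0.0195), RFC5 by 0.35 (adjusted p = 0.0326) and RFC4 by 0.31 (adjusted p = 0.0491). The call of RFC4 was lost in 13 of the 14 other settings tried for it, that of RFC5 in 6, that of FEN1 in 5 and that of PCNA in 4. Those of PCNA, FEN1 and RFC5 were each lost without replicate 1 of the controls, without replicate 1 and without replicate 3 at 1000 µM, and that of RFC5 also without replicate 2 or 3 of the controls. FEN1 shares 49 exon bases with FADS2 on the same strand and 166 with TMEM258 on the other, and both of these genes were lower at 1000 µM, by 0.50 and 0.97.

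RPA coats single-stranded DNA and has a large, a middle and a small subunit. RPA3, the small one, was at 25.1, 25.7 and 18.5 CPM in the controls and at 9.39, 14.7 and 11.4 CPM at 1000 µM. The groups did not overlap, yet RPA3 was the least repeatable of these genes, with 35.6 CPM in replicate 1 at 0.01 µM beside 13.1 and 14.5 CPM in the other libraries of that dose. Its log2 fold change was −0.96 with the widest SE of the 42 genes, 0.302 (adjusted p = 0.0162), and the call was lost without replicate 1 or 2 of the controls and without replicate 1 or 3 at 1000 µM. RPA2 fell by 0.26 (SE 0.0845, adjusted p = 0.021), a call lost in 6 of the 14 other settings, among them those without replicate 1 of the controls or replicate 1 or 3 at 1000 µM. RPA1, the large subunit, had a log2 fold change of −0.09 (adjusted p = 0.304).

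Nucleotide supply is represented by TK1, which phosphorylates thymidine, TYMS, which makes thymidylate, and the ribonucleotide reductase subunits RRM1 and RRM2. TK1 was at 130, 133 and 109.5 CPM in the controls and at 67.7, 69.7 and 55.5 CPM at 1000 µM. All but 1 of the 18 treated libraries were below all 3 controls. The exception was replicate 3 at 0.1 µM, at 113 CPM. The log2 fold change at 1000 µM was −0.95 (SE 0.111, adjusted p = 5.55e-06), and −0.39 with the trend on length and GC content removed.

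TYMS was at 286, 261 and 261 CPM in the controls and at 166, 212 and 171 CPM at 1000 µM, with no overlap. It fell by 0.56 (SE 0.135, adjusted p = 0.00325), and by 0.28 with the trend on length and GC content removed. TYMS shares 967 exon bases with ENOSF1 and 183 with TYMSOS on the other strand, and whether the counting used strand is not given in the sources used here. RRM2 was at 326, 299 and 324 CPM in the controls and at 273, 286 and 251 CPM at 1000 µM, and 100 µM held its highest levels, 340.4 to 364 CPM. RRM2 fell by 0.23 at 1000 µM (SE 0.0694, adjusted p = 0.0138), a call lost in 5 of the 14 other settings, among them those without replicate 1 or 3 of the controls or replicate 3 at 1000 µM. RRM1 had a log2 fold change of −0.19 (adjusted p = 0.117).

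The last set holds genes of S-phase entry and chromatin: the transcription factor E2F1, the cyclins CCNE1 and CCNE2 that activate CDK2, UHRF1, which brings the maintenance methyltransferase to new DNA, and SLBP, which binds histone mRNA. E2F1 was the only one of these 5 genes to pass against the controls (20%, lower, where 20.6% of all genes were lower). It was at 73.6, 73.7 and 66.0 CPM in the controls and at 53.7, 52.2 and 50.7 CPM at 1000 µM, and fell by 0.45 (SE 0.0882, adjusted p = 0.000667). The groups did not overlap. With the trend on length and GC content removed its log2 fold change was −0.07 (adjusted p = 0.622), which ends the call.

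CCNE1 was at 55.0, 51.6 and 60.5 CPM in the controls and at 51.2, 46.9 and 46.5 CPM at 1000 µM, just below them (log2 fold change −0.21, adjusted p = 0.13). CCNE2, the least abundant of the 42 genes, was at 5.35, 5.15 and 4.37 CPM in the controls and at 4.96, 7.29 and 7.77 CPM at 1000 µM. These groups overlap, and its log2 fold change of 0.43 (SE 0.195) had an adjusted p of 0.0861. SLBP was at 107, 92.2 and 98.4 CPM in the controls and at 69.9, 88.7 and 97.4 CPM at 1000 µM, also with overlap (log2 fold change −0.22, adjusted p = 0.104). UHRF1 was at −0.37 on the log2 scale (SE 0.151, adjusted p = 0.0565). CCNE2 passed as higher without replicate 1 at 1000 µM (0.63, adjusted p = 0.017) and with the mitochondrial share as a covariate (0.49, adjusted p = 0.0468). CCNE1 turned to 0.044 with the trend on length and GC content removed.

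**Figure D2:**
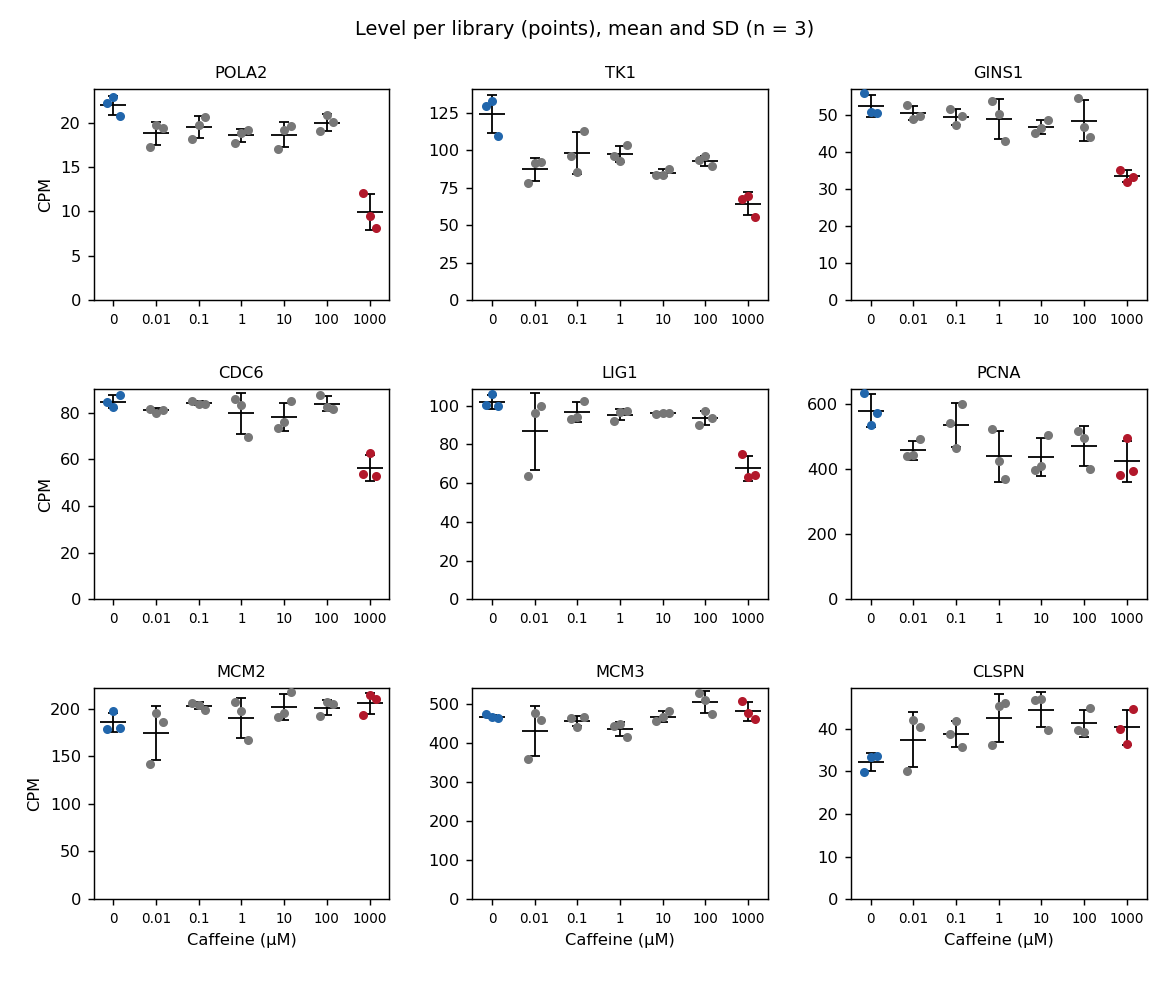
CPM (vertical axes, from 0) against caffeine dose in µM for 9 of the genes, with a point per library, a line for the mean and bars for the SD of 3 libraries. POLA2, GINS1 and CDC6 are below all other libraries in the 3 libraries at 1000 µM, and LIG1 below all but 1 library at 0.01 µM, while the libraries of MCM2 and MCM3 at 1000 µM overlap the controls and the lowest point of both is at 0.01 µM.

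Counted over libraries, 27 of the 42 genes had all 3 libraries at 1000 µM below all 3 controls, where 27.3% of all genes tested did, and 2 had them all above, where 25.9% of all genes did. All 21 genes called lower were among the 27. Of the 21, 11 passed in each of the 14 other settings tried: CDC6, CDT1, GINS1, GINS2, GINS4, LIG1, POLA2, POLD1, RFC2, TK1 and TYMS. The median log2 fold change over the 42 genes was −0.24, beside −0.03 over all 17468 genes. The mean log2 level of the 42 genes relative to the controls was −0.28 ± 0.05 at 1000 µM (SD, n = 3), and at the other doses it lay between −0.11 and −0.03. By role the mean at 1000 µM was −0.48 for nucleotide supply, −0.44 for single-strand binding, −0.39 for the clamp, its loader and the lagging strand, −0.31 for the polymerases, −0.29 for helicase activation, −0.17 for S-phase entry and chromatin and −0.11 for licensing. Without replicate 1 of the controls the count of genes past the threshold at 1000 µM was 13, all lower.

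**Figure D3:**
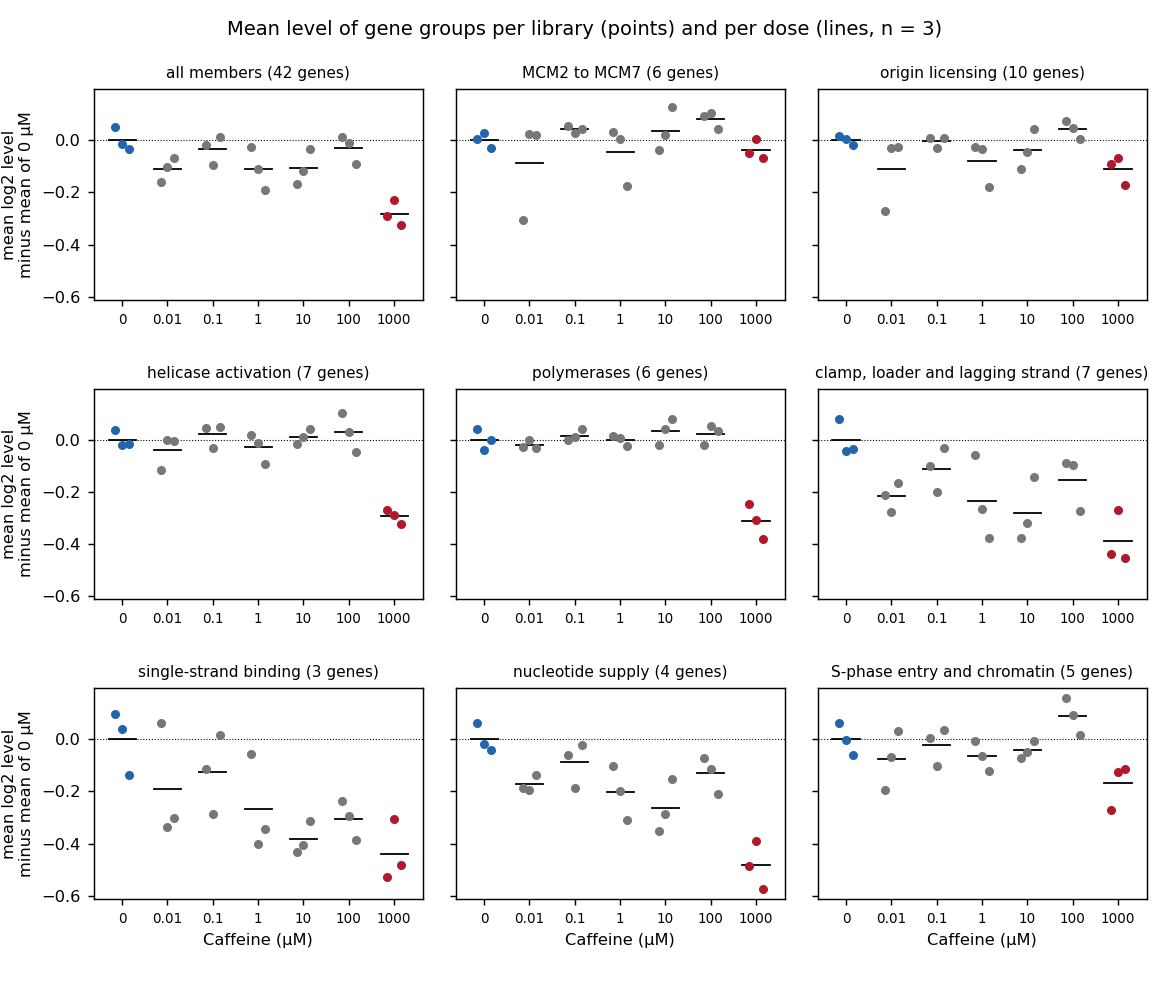
Mean log2 level of each set of genes relative to the mean of the controls (vertical axes) against caffeine dose in µM, with a point per library and a line per dose (n = 3). The helicase activation and polymerase sets lie near 0 up to 100 µM and between −0.25 and −0.38 at 1000 µM, while the clamp, single-strand binding and nucleotide supply sets have lower means at every dose than in the controls.

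The comparison of 1000 µM with the mean of the 5 lower doses asks what sets the highest dose apart from other treated cells, and leaves the controls out of the fold change. The control libraries still count in the filter, the scaling and the estimate of the spread. In it 17 of the 42 genes were lower and 1 was higher, where 30.5% of all genes passed, 14.2% lower and 16.3% higher. Of the 21 genes lower than the controls, 14 were also lower here: CDC6, E2F1, GINS1 to GINS4, LIG1, POLA2, POLD1, POLE2, RFC2, RRM2, TK1 and TYMS. POLA2 had the smallest p, at −0.95 on the log2 scale (SE 0.0960, adjusted p = 7.97e-07). GINS1 was at −0.55 (adjusted p = 2.3e-05), CDC6 at −0.53 (adjusted p = 1.85e-05) and TK1 at −0.52 (adjusted p = 0.000242).

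The 7 genes that were lower against the controls but did not pass here were CDT1, FEN1, PCNA, RFC4, RFC5, RPA2 and RPA3. RFC4 had a log2 fold change of −0.01 in this comparison and RPA2 of −0.04, so for these the level at 1000 µM was close to that at lower doses. CCNE1 (−0.30, adjusted p = 0.0124), UHRF1 (−0.37, adjusted p = 0.0246) and MCM10 (−0.26, adjusted p = 0.00223) were lower here and not against the controls. ORC6 was the gene that was higher (0.27, adjusted p = 0.0121). No MCM2 to MCM7 gene passed. Without replicate 3 at 1000 µM 10 genes passed, and without replicate 1 at 0.01 µM 20 did.

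**Figure D4:**
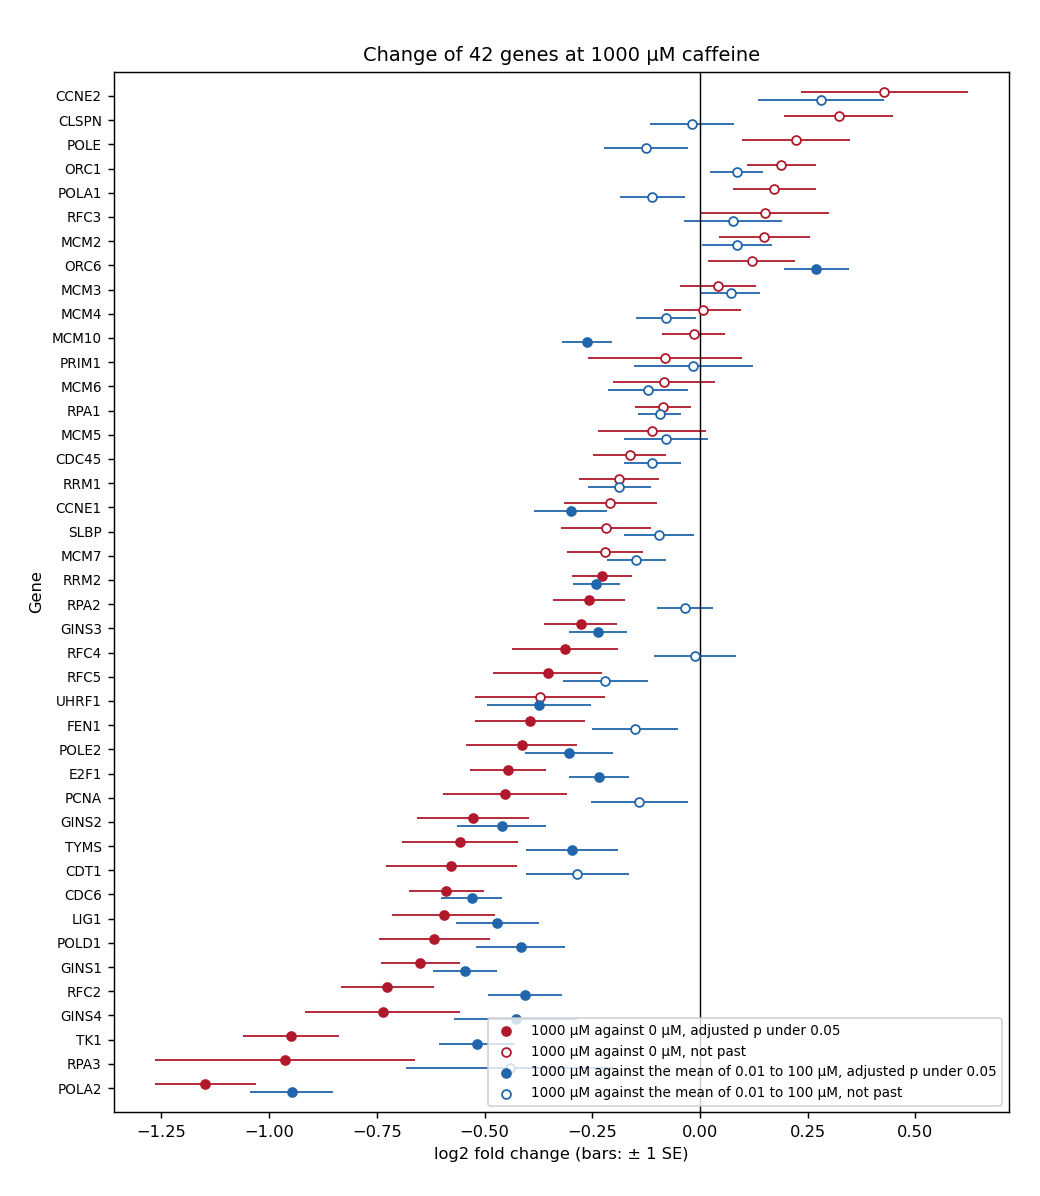
Log2 fold change (horizontal axis, bars ± 1 SE) of each of the 42 genes at 1000 µM caffeine against the controls (red) and against the mean of the doses from 0.01 to 100 µM (blue), with filled points where the adjusted p was under 0.05. POLA2 is lowest in blue and in red, while PCNA, RFC4, RPA2 and FEN1 are filled in red only.

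In the test of the 7 groups together 16 of the 42 genes passed, where 28.1% of all genes did. They were 12 of the genes lower at 1000 µM, with CCNE1, MCM10, ORC6 and POLE added. This count rested on few libraries: it was 8 without replicate 3 at 1000 µM, 9 without replicate 2 at 1000 µM or replicate 2 at 100 µM, and 10 without replicate 2 of the controls or replicate 1 at 100 µM. The 14 genes that passed in no comparison were MCM2 to MCM7, ORC1, CDC45, PRIM1, RFC3, RPA1, RRM1, CCNE2 and SLBP.

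The 5 lower doses were each compared with the same 3 controls, so these comparisons and the one at 1000 µM share their control libraries. At 10 µM 12 of the 42 genes passed, where 22% of all genes did, 11.3% higher and 10.7% lower. The 8 lower genes were E2F1, PCNA, RFC2, RFC4, RPA2, RPA3, TK1 and TYMS, and all 8 were also called lower at 1000 µM. The 4 higher genes were POLE, POLA1, CLSPN and MCM10, none of which was called at 1000 µM against the controls. All 3 libraries at 10 µM were below all controls for 16 genes and above them for 6, where 23.4% and 22.4% of all genes were.

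TK1 was at 83.5, 83.8 and 87.5 CPM at 10 µM, below the controls, and fell by 0.55 (SE 0.1102, adjusted p = 0.00464). POLE was at 67.2, 80.6 and 74.1 CPM in the controls and at 120, 105 and 102 CPM at 10 µM, all above them. POLE rose by 0.56 (SE 0.125, adjusted p = 0.0068). RFC4 was at 38.6, 35.4 and 37.2 CPM in the controls and at 24.7, 26.4 and 27.4 CPM at 10 µM, with no overlap, and fell by 0.50 (SE 0.123, adjusted p = 0.00966). The count at 10 µM was 3 without replicate 1 of the controls or replicate 1 at 10 µM, 4 without replicate 2 at 10 µM and 5 without replicate 2 of the controls.

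The calls at 10 µM were sorted by transcript length. The 8 lower genes had longest transcripts of 1359 to 2503 bases, the 4 higher genes of 4587 to 8011 bases. Across the 42 genes the correlation of the log2 fold change with log2 transcript length was 0.49, 0.68, 0.70, 0.69 and 0.49 at 0.01, 0.1, 1, 10 and 100 µM, which are comparisons that share their controls, and 0.30 at 1000 µM. Across the 15694 genes with a known length and GC content it was 0.25 to 0.34. These are correlations across genes of the same libraries, and are descriptions. In the comparison of 1000 µM with the lower doses the value over the 42 genes was −0.08. With a smooth trend on length and GC content removed from every library, a setting chosen after seeing the data, 7 genes passed at 10 µM (3 higher and 4 lower) and 23 at 1000 µM (3 higher and 20 lower). The share of all genes that passed in that setting is not given here. Of the 21 genes lower at 1000 µM, E2F1, FEN1, PCNA, POLE2, RFC4 and RPA2 no longer passed in that setting, whereas POLA2 had a log2 fold change of −1.10, CDC6 of −0.79, GINS1 of −0.76 and TK1 of −0.39. The genes gained as lower were MCM6 (−0.23), MCM10 (−0.24), RPA1 (−0.20), RRM1 (−0.25) and UHRF1 (−0.37). The 3 higher genes were ORC1 (0.24), MCM2 (0.29) and ORC6 (0.33).

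**Figure D5:**
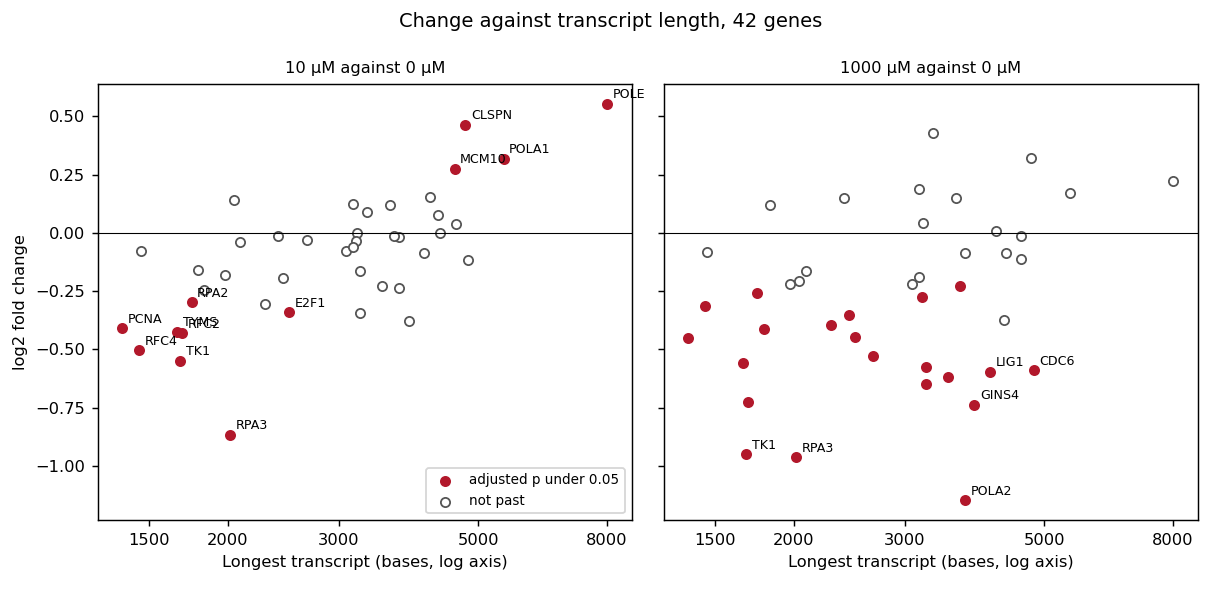
Log2 fold change (vertical axis) against the length of the longest transcript in bases (log axis) for the 42 genes at 10 µM and at 1000 µM caffeine against the controls, with filled points where the adjusted p was under 0.05. At 10 µM the lower genes lie at the short end and the 4 higher ones at the long end, and at 1000 µM CDC6, LIG1, GINS4 and POLA2 are lower among the longer transcripts.

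At 0.01 µM only TK1 passed, where 4.95% of all genes did, 2.08% lower and 2.87% higher. It was at 78.2, 91.7 and 91.9 CPM, below all controls (log2 fold change −0.51, SE 0.1102, adjusted p = 0.0392). The call was lost without replicate 1 or 2 of the controls and without replicate 1 or 2 at 0.01 µM, and 3 genes passed without replicate 3 of the controls and 2 without replicate 3 at 0.01 µM. Of the 42 genes 15 had all 3 libraries below the controls, where 16.3% of all genes did, and 2, MCM10 and POLA1, had them all above, where 15.7% did.

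At 100 µM MCM10 and TK1 passed, where 6.02% of all genes did, 2.74% higher and 3.27% lower. MCM10 was at 63.6, 57.5 and 62.1 CPM, above the controls, and rose by 0.31 (SE 0.0733, adjusted p = 0.0278). TK1 was at 93.5, 96.2 and 89.3 CPM, below the controls, and fell by 0.42 (SE 0.11, adjusted p = 0.0367). No gene passed without replicate 1 or 2 of the controls or without any 1 of the 3 libraries at 100 µM. All 3 libraries were below the controls for 13 genes and above them for 9, where 22% and 21% of all genes were.

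At 0.1 and 1 µM none of the 42 genes passed edgeR's test, where 0% of all genes did at either dose. At an unadjusted p under 0.05 there were 6 at 0.1 µM and 13 at 1 µM, and DESeq2 called 1 and 6. Without replicate 3 at 0.1 µM 1 gene passed at that dose, and without replicate 1 at 1 µM 4 did. The shares of all genes at an unadjusted p, with DESeq2 or in these fits are not given here, so these counts have no background beside them. Libraries lay below all controls for 3 genes at 0.1 µM, where 12.4% of all genes did, and for 14 genes at 1 µM, where 12.5% did. They lay above all controls for 7 genes at 0.1 µM and for 3 at 1 µM, where 10.1% and 11.1% of all genes did. RFC2 had a log2 fold change of −0.34 at 1 µM (adjusted p = 0.0959).

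A list of 63 other replication genes, mostly regulators, accessory subunits and nucleotide enzymes, showed no common direction at 1000 µM. In it 13 genes were higher and 12 lower, where 20.6% of all genes were in each direction, with a median log2 fold change of 0.05 beside −0.03 over all genes. The lower genes with the largest fold changes were POLE4, a small subunit of polymerase epsilon (−0.94, adjusted p = 3.62e-05), RNASEH2A, which removes RNA from DNA (−0.84, adjusted p = 0.00572), the G1 kinase CDK4 (−0.80, adjusted p = 0.000466), DUT, which keeps uracil out of DNA (−0.78, adjusted p = 0.0062), and the histone chaperone ASF1B (−0.76, adjusted p = 4.83e-06). The higher genes with the largest fold changes were RBL2 (0.66), a relative of the retinoblastoma protein, the G1 kinase CDK6 (0.62), LIN54 (0.60), which belongs with RBL2 to the DREAM complex, the retinoblastoma gene RB1 (0.58) and TOPBP1 (0.51), which helps to start replication. DREAM and RB1 are known as repressors of E2F target genes. In the same list E2F2 (−0.32, adjusted p = 0.00182) and TFDP1 (−0.35, adjusted p = 0.00276) were lower, and E2F7 (0.41, adjusted p = 0.0413) was higher. RBL1 (0.21, adjusted p = 0.113), E2F4 (−0.11, adjusted p = 0.508) and E2F5 (0.006, adjusted p = 0.972) did not pass. Nor did E2F3 (0.28, adjusted p = 0.0825), E2F8 (0.15, adjusted p = 0.295) and TFDP2 (0.08, adjusted p = 0.456). Whether any of these regulators had a part in the fall of the replication genes was not tested. Against the lower doses RBL2 was higher by 0.41 (adjusted p = 0.00107) and CDK6 by 0.27 (adjusted p = 0.0394), while TOPBP1 (0.15, adjusted p = 0.133), RB1 (0.26, adjusted p = 0.0624) and LIN54 (0.28, adjusted p = 0.0787) did not pass. Of the 5 lower genes with the largest fold changes, ASF1B (−0.57, adjusted p = 8.11e-06) and CDK4 (−0.33, adjusted p = 0.0479) were also lower against the lower doses. POLE4 (−0.25, adjusted p = 0.0853), RNASEH2A (−0.42, adjusted p = 0.0812) and DUT (−0.22, adjusted p = 0.326) did not pass there. The calls in this list of 63 genes were not followed in the alternative settings tried for the main set of replication genes. Over all genes with a known length the log2 fold change at 1000 µM against the controls correlated with log2 transcript length at 0.34. The part of transcript length in the calls of this list was not tested.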

How the data were processed

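The authors deposited raw read counts, whole numbers for each gene, in 1 table. The submitters' processing notes name HISAT2, DESeq2 and the build GRCh38. Their roles, the counting program, the annotation and any use of strand are not given in the sources used here. The table has 21 columns for these samples and 21 more per-sample columns that were not used. Counts were tested with edgeR 4.0.16 (R 4.3.3): TMM scaling, expression filter at a minimum count of 10, quasi-likelihood test, 1 fit of 21 libraries in 7 groups (14 residual degrees of freedom, 17468 genes), Benjamini-Hochberg adjustment over all genes, threshold 0.05. SE is log2 fold change over the root of the F statistic. Log2 CPM used a prior count of 2. Exon lengths and overlaps came from GENCODE v29. The code was tested on simulated data. The members and lists were chosen with earlier results of these data known. Values in every library are given for the 8 lower genes with the smallest p at 1000 µM, up to 3 per other dose, and MCM2, CDC6, ORC1, PCNA, RRM2, TYMS, CCNE1, CCNE2, E2F1 and SLBP, and up to 5 genes in each direction from other lists. CDT1, MCM3, RPA3 and CLSPN, and MCM10 at the doses where it did not pass, were added after their values were seen. Alternatives were DESeq2 1.42.0, its size factors, other filters, a replicate block, the compared groups alone and each library left out. The series' text calls the libraries biological replicates, and no pair within a dose was close enough to be 1 library deposited again. Pairs across doses were not compared in this way.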

Additional observations from a re-analysis of the deposited data

How the results depend on the processing

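The count of genes past the threshold at 1000 µM against the controls was 21, and stayed within 1.5 times of that under every alternative except without replicate 1 of the controls. Leaving out single libraries gave counts from 13 to 23 there, from 10 to 20 for the highest dose against the lower ones, and from 8 to 20 among the 7 groups. For the lower doses against the controls such counts ran from 0 to 3 (0.01 µM), from 0 to 1 (0.1 µM), from 0 to 4 (1 µM), from 3 to 11 (10 µM) and from 0 to 2 (100 µM). At 0.01 µM (1 gene) the count was 2 with DESeq2's size factors, 6 with DESeq2, 2 with at least 10 counts in every library, and 0 with the 6 libraries compared alone, with the length and GC trend removed or with the mitochondrial share as a covariate. DESeq2 gave counts of 1 (0.1 µM), 6 (1 µM) and 4 (100 µM). Without a filter on low counts 6 genes passed at 10 µM and 0 at 100 µM. With the length and GC trend removed 7 passed at 10 µM, and with the 6 libraries alone 11 passed at 100 µM. The causes were not tested. Counts over all genes moved too: at 0.01 µM from 864 to 2118 with DESeq2 and to 2 with the 6 libraries alone. Such counts are not given here for the other alternatives, the fits without single libraries and the replicate block included. The changes in the counts therefore cannot be read as particular to the genes described here. The settings on length and GC content and on the mitochondrial share were chosen after seeing the data.

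The replicate numbers did not pair the libraries: over 63 pairs with the same number the correlation of deviations ran from −0.437 to 0.249 (median 0.0199), with 11 over 0.1, and 5 of 21 libraries correlated best with their own number. With the replicate block the counts were 0 (0.01 µM), 10 (10 µM), 1 (100 µM) and 21 (1000 µM, 20 lower and CLSPN higher), 17 against the lower doses and 12 among the 7 groups.

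The sign of the log2 fold change at 1000 µM turned in some setting for 7 genes, none of which had passed. MCM10 was at 0.0089 with DESeq2's size factors, 0.0086 with DESeq2, 0.019 without a filter and 0.0032 with the 6 libraries alone, and from −0.026 to 0.022 with single libraries left out. With the length and GC trend removed MCM4 was at −0.087, CDC45 at 0.058, POLA1 at −0.12, PRIM1 at 0.12, CCNE1 at 0.044 and SLBP at 0.017. With single libraries left out MCM4 ran from −0.0037 to 0.043 and PRIM1 from −0.22 to 0.089.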

Other observations

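Of 26 mitosis genes tested at 1000 µM, 9 were higher, 3 lower and 14 not called against the controls, where 20.6% of all genes were higher and 20.6% lower, and the median log2 fold change was 0.06. The kinetochore motor CENPE rose by 1.00 (SE 0.166, adjusted p = 0.000160, edgeR), from 33.8 ± 2.18 to 67.4 ± 13.2 CPM (SD, n = 3). The proliferation antigen MKI67 rose by 0.79, the kinetochore protein CENPF by 0.68 and the checkpoint kinases BUB1B and BUB1 by 0.49 and 0.48. BIRC5 (survivin) fell by 0.78, CDC20, an activator of the anaphase-promoting complex, by 0.60 and the kinase AURKB by 0.56. Against the lower doses 6 were higher and 2 lower, where 16.3% of all genes were higher and 14.2% lower, and MKI67 had a log2 fold change of −0.01 (adjusted p = 0.983). The calls of these mitosis genes were not followed in the alternative settings tried for the replication genes. Over all genes the log2 fold change at 1000 µM against the controls correlated with log2 transcript length at 0.34.

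Of 22 genes of replication-dependent histones and their regulators, 20 were in the table and 13 were tested, and most of these mRNAs lack a poly(A) tail, which the libraries were selected for. CASP8AP2 and NPAT, which serve histone transcription and have poly(A) tails, rose by 1.04 (adjusted p = 8.27e-05) and 0.79 (adjusted p = 0.00311) at 1000 µM. Of the histone genes H2BC21 rose by 0.50 and H1-2 fell by 0.66. These calls too were not followed in the alternative settings.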
